A study of Homo sapiens with 8 samples.

Results

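The METTL3-bound transcripts of LNCaP cells are described here as the authors' peak list gives them: 2616 genomic intervals enriched by RNA immunoprecipitation with an antibody against METTL3. Peaks were placed on a protein-coding GRCh38 gene when its span, and that of no further coding gene, held them whole. In this way 2486 of the 2616 peaks (95%) were assigned. They fell on 1081 of 19974 protein-coding genes, so that 5.41% of all protein-coding genes carried at least 1 peak. The whole series holds 3649 peaks in 2 lists, the other of which, with 1033 peaks, comes from PC3 cells.

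LNCaP is an androgen-sensitive human prostate cancer line, and it was grown here with 20% FBS. PC3 is an androgen-independent prostate cancer line, grown with 10% FBS. Each line gave 2 METTL3 IP samples and 2 input samples, all of cells with no genotype change or drug named in the labels. In the labels' protocols, 80% of a lysate went to the METTL3 antibody, 10% was kept as input and 10% went to rabbit IgG, a negative control whose libraries are not used here. The libraries kept the strand of the RNA. The labels do not say whether the replicates of a group came from separate cultures. A single list stands for all 4 LNCaP samples, without values per sample. No error between replicates can therefore be given, the sequencing depth is unknown, and no difference was tested. Intervals in brackets are 95% Wilson intervals of a share, or exact order-statistic intervals of a median, and cover counting error only.

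METTL3 is the catalytic subunit of the nuclear complex that writes N6-methyladenosine (m6A) on RNA. Its partners, among them METTL14 and WTAP, recruit it to transcripts, demethylases such as FTO can remove the mark, and reader proteins then act on splicing, decay or translation of the marked RNA. In mRNA the mark is known to lie often in long internal exons and around stop codons, most often within the letters GGAC. An IP of the writer itself recovers RNA held by METTL3 or its complexes, which need not be methylated.

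METTL3 is known to mark primary microRNA transcripts for processing, so the microRNA hairpins inside peaks are shown first. Of 1558 hairpins in a RefSeq table on GRCh38.p14, 31 lay whole within a LNCaP peak of the same strand, and 7 of these lay in peaks that spanned at most 5000 bp. The others lay in wider peaks, of up to 563874 bp. How many hairpins peaks of such spans would hold by their position alone was not tested, so the count is a description only. A pair of the 7 shared a peak in HUWE1, the gene of a large ubiquitin ligase. That peak, chrX:53554913-53559530 on the minus strand, spanned 4618 bp with a fold of 6.62 (p of 3.64e-05, both the authors' own values for that peak, as throughout). It held MIR98 and MIRLET7F2, members of the let-7 family, whose mature strands below share the seed GAGGUAG (bases 2 to 8, in capitals), the seed of 11 mature microRNAs of the table with these included.
hsa-miR-98-5p: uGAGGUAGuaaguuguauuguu
hsa-let-7f-5p: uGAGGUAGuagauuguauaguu
The remaining 5 hairpins shared no seed with each other. The KHSRP peak that held MIR3940 spanned 1261 bp and had a fold of 8.94 (p of 2.80e-06). KHSRP encodes an RNA-binding protein known to take part in microRNA processing. The SLC12A7 peak with MIR4635 had a fold of 8.01 (p of 1.23e-05), the GCN1 peak with MIR4498 a fold of 6.38 (p of 0.00216) and the DDR1 peak with MIR4640 a fold of 3.31 (p of 1.72e-05). The mature sequences of the 2 hairpins in the peaks with the larger folds are given, with seeds in capitals.
hsa-miR-3940-3p: cAGCCCGGaucccagcccacuu
hsa-miR-3940-5p: gUGGGUUGgggcgggcucug
hsa-miR-4635: uCUUGAAGucagaacccgcaa
A peak's span includes any intron it crosses, so a hairpin inside a span was not shown to be covered by reads.

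A further set of peaks lay over transcription start sites, which is where a sequence of the transcript itself can be read from the RefSeq promoter table. Of 918 LNCaP peaks that spanned at most 250 bp, 19 covered at least part of the first 30 bases of a protein-coding gene on its own strand, and their median fold was 4.65. By the whole-peak rule, 11 of the 19 were not assigned to the gene whose start they covered. The first 30 bases of 5 genes with roles in splicing are printed 5′ to 3′, with the bases inside the peak in capitals. These genes were chosen after their values were seen. SRRM2 and PRPF8 encode core spliceosome-associated proteins, U2AF2 the large subunit of the factor that recognises the polypyrimidine tract, and RBM5 and ZRANB2 are regulators of alternative splicing.
SRRM2, chr16:2752638-2752667, plus strand: GTGCTGACGTGCAGCGCGGCCCAGGCGGGG
ZRANB2, chr1:71081006-71081035, minus strand: GAAGACATAGCTGCGGGTGGCTGTGCTGGT
PRPF8, chr17:1684838-1684867, minus strand: ACTTCCCGGCGCTGGGAACGCGGAGCGGAC
U2AF2, chr19:55655035-55655064, plus strand: AGCCGAAGCGGctggagcgggcggcaaggc
RBM5, chr3:50088919-50088948, plus strand: ACTGTGGGTAGGAGACGGCCGTCGGCGGAG
The SRRM2 peak over its start, 226 bp wide, had the smallest p of the 19 (fold 6.64, p of 7.07e-12). The PRPF8 peak had a fold of 6.04 (p of 2.43e-05). A plus-strand peak at chr17:1684750-1684950, opposite to the gene, overlapped it with a larger fold of 6.68 and a smaller p of 8.17e-12. Which strand gave the signal at the PRPF8 start was not tested. The start peaks of U2AF2, ZRANB2 and RBM5 had folds of 4.85, 4.34 and 3.81. The letters GGAC, searched only as read along the gene's strand, were present in the windows of 2 of the 19 genes, PRPF8 and TTLL12, while 11.4% of 22156 start windows of protein-coding genes held them. The search describes these 30 bases and says nothing of the rest of the peak.

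Folds in the list ranged from 1.25 to 237, with quartiles of 4.27, 5.26 (interval of the median 5.15 to 5.36) and 7.26. The fold is linear and is the authors' own. The file does not name its denominator, which the design implies is input. Each p-value is also the authors', and the median was 0.00137, the largest 0.0178. A p of at most 0.001 was reached by 1159 peaks and a p of at most 1e-10 by 57. A fold of 10 or more was given to 332 peaks and of 50 or more to 12. A fold of at least 4 was found on 949 genes (4.75%). Spans ran from 51 bp, the span of 326 peaks, to 1102459 bp, with a median of 924.5 bp, and 77 peaks spanned over 100000 bp. Markers of luminal prostate epithelium in the list included KRT8, FOLH1 and TMPRSS2, while no marker of basal, neuroendocrine, stromal or immune cells carried a peak. A list of IP peaks does not show expression, and a gene without a peak may be expressed.

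Genes with METTL3 peaks were long. Their median genomic span was 65922 bp, against 24170.5 bp over all protein-coding genes. The share of genes with a peak was 1.88% among genes of under 20 kb (169 of 8983), 5.98% among those of 20 to 50 kb (283 of 4733) and 6.71% among those of 50 to 100 kb (195 of 2907). It was 11.7% among genes of 100 to 200 kb (229 of 1955) and 14.7% among those over 200 kb (205 of 1396). Shares of gene groups are therefore mostly given with the group's median gene span. A longer gene also offers more positions at which a peak can be called, and its part in these shares was not tested.

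**Figure D1:**
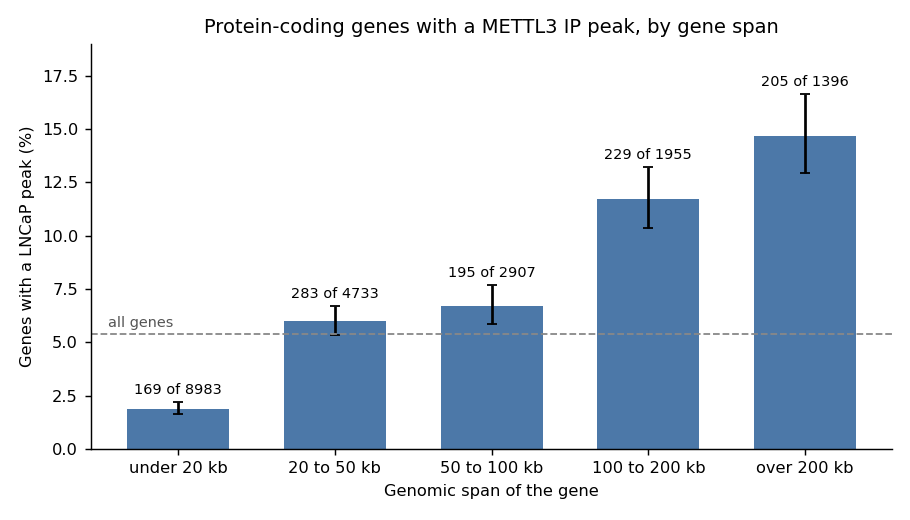
Share of protein-coding genes with at least 1 LNCaP peak (bars, percent) in 5 classes of genomic gene span, with 95% Wilson intervals and, as a dashed line, the share over all genes (5.41%). The share was 1.88% for genes under 20 kb and 14.7% for genes over 200 kb.

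The number of peaks per gene was uneven. A single peak was found on 553 genes, 2 peaks on 235 and 3 or more on 293 (1.47% of all protein-coding genes). The 24 genes with at least 10 peaks held 319 peaks, or 12.8% of those assigned. The median span of these genes was 83490 bp, against 78773 bp for genes with a single peak and 65922 bp for all genes with a peak. The peaks of these 24 genes were narrower than those of genes with a single peak, with a median span of 476 bp against 4416 bp. They had a median fold of 5.98 against 5.02 and a median p of 0.000922 against 0.00232.

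Among the 10 genes with the most peaks, 8 are described here, which encode structural, splicing, cell cycle and metabolic proteins. MACF1, which links microtubules to actin, carried 23 peaks with folds of 3.08 to 12.8 (median 4.97), spread over 90.6% of its 402972 bp. MKI67, the gene of the proliferation antigen Ki-67, carried 17 with folds of 5.05 to 12.7 (median 7.25). They lay within 37.8% of the span of that gene, so that MKI67 had 57.1 peaks per 100 kb and MACF1 had 5.71. The densest of the 8 was SRRM2, which encodes a scaffold of nuclear speckles, with 16 peaks in 18775 bp, or 85.2 per 100 kb (folds 3.76 to 10.6, median 5.42).

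FASN, the fatty acid synthase gene, had the highest median fold of the 8, at 10.9 over 14 peaks (4.17 to 18.6), and 70.4 peaks per 100 kb. Its peak with the smallest p, 5.77e-10, had a fold of 14.6. NUMA1, which organises spindle poles, carried 14 peaks with folds of 4.38 to 11.8 (median 7.42), all within 15.7% of its span, with 8 on the strand of the gene and 6 on the opposite strand. PLEC, a plakin that links intermediate filaments to other structures, carried 16 with folds of 3.32 to 20.4 (median 7.49). FLNA, which crosslinks actin, carried 15 (3.54 to 16.9, median 5.68). FN1, the fibronectin gene, carried 13 with folds of 4.19 to 8.63 (median 5.82).

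**Figure D2:**
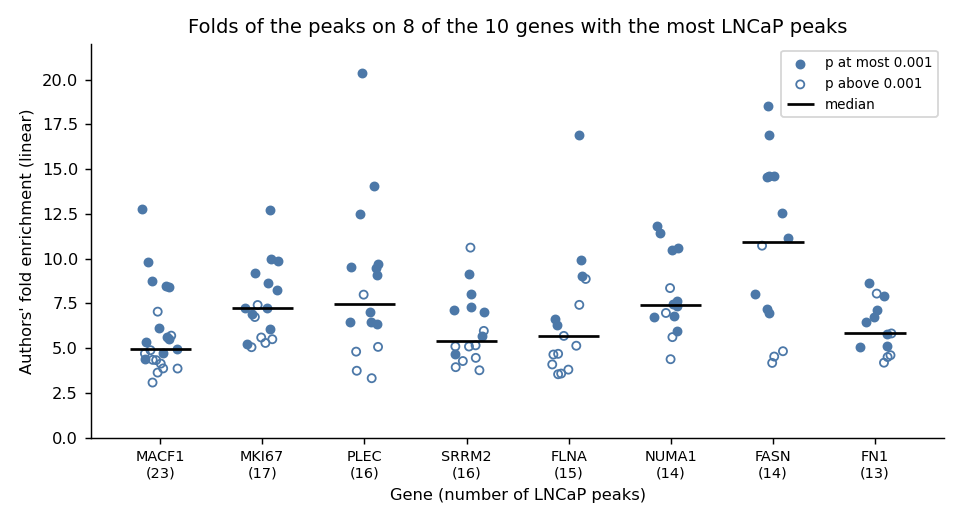
Authors' fold (linear axis) of each LNCaP peak on 8 of the 10 genes with the most peaks, with filled points for p of at most 0.001 and open points for larger p, and a line at the median. FASN has the highest median, 10.9, and MACF1, with 23 peaks, the lowest, 4.97.

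To describe gene classes, 21 lists written by symbol and 30 families matched by symbol were set beside all protein-coding genes. Of these 51 groups, 35 had a larger share of genes with a peak than the 5.41% over all genes, and 8 had no gene with a peak. The groups were chosen with earlier results of these data known, so this count is a description only. The 5.41% is not matched for gene span. A group above it can lie below genes of its length, as cadherins did (6.19%, against 11.7% for genes of 100 to 200 kb). The groups together held 2932 genes, 258 of them with a peak, and some genes stand in more than 1 group. Chromatin remodellers, splicing and decay factors, plakins, and the methyltransferases and acetyltransferases of lysine stood high among the lists. Ribosomal proteins, proteasome subunits, histones and olfactory receptors were at or near 0.

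**Figure D3:**
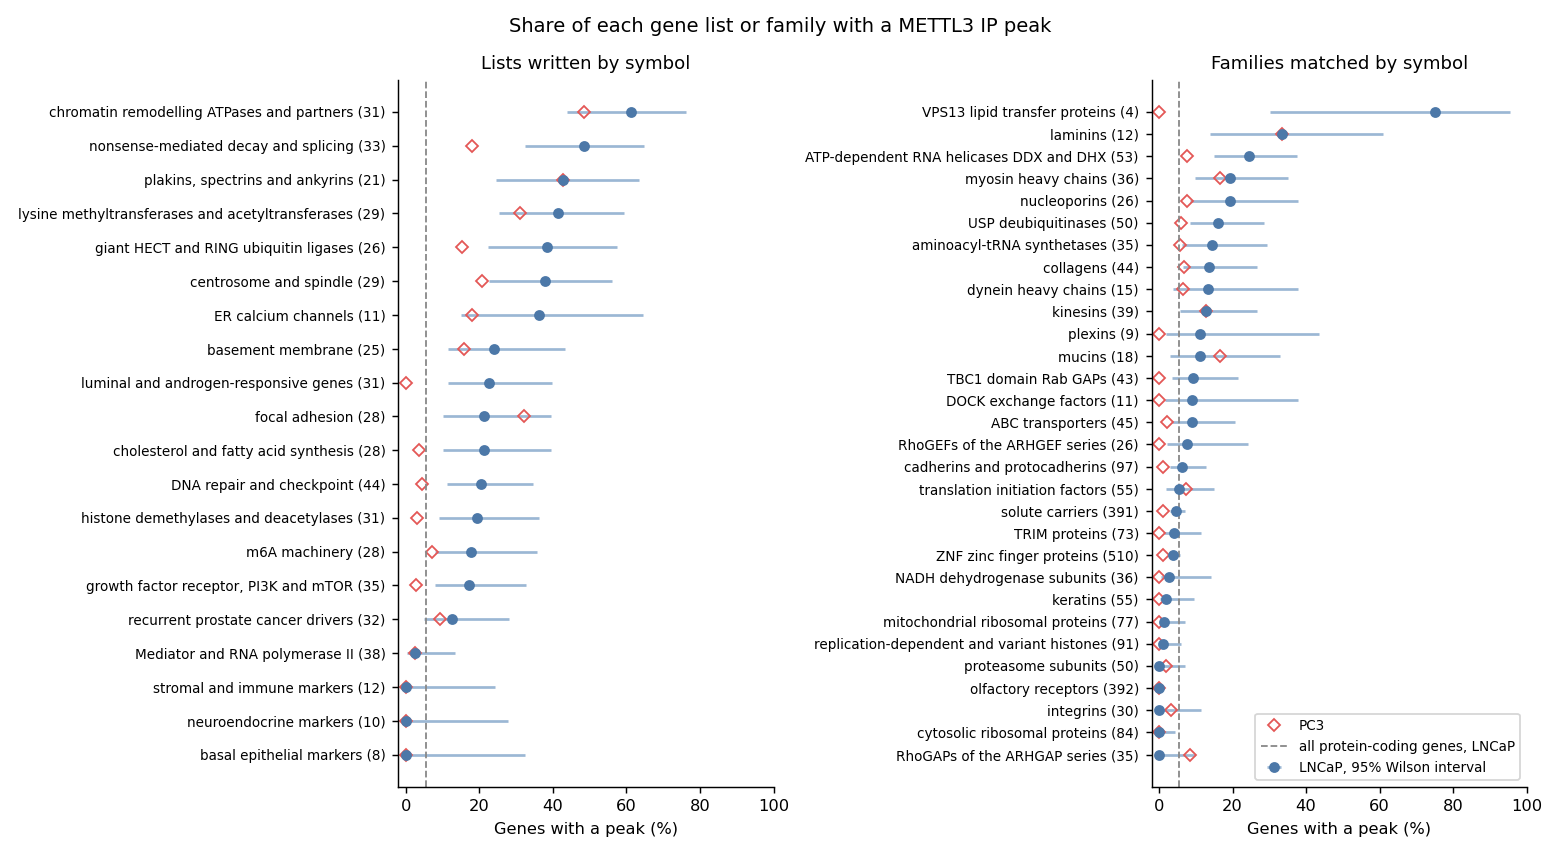
Share of genes (percent) with a LNCaP peak in each list (left) and symbol family (right), as filled points with 95% Wilson intervals, with the number of genes in brackets, for 50 of the 51 groups, the PC3 share as open diamonds and the LNCaP share over all genes as a dashed line. Chromatin remodelling stands highest among the lists at 61.3%, and 8 groups have no LNCaP gene. The PC3 list ends at a smaller p than the LNCaP list, so the symbols of the cell lines are not matched for p.

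Some genes of the m6A machinery themselves carried peaks. Of 28 writers, erasers and readers, 5 carried a peak (17.9%, interval 7.88 to 35.6%, median gene span 36179 bp). Of all genes of 20 to 50 kb, 5.98% did so. Counting only peaks known to lie on the strand of the gene, 3 of the 28 carried one (10.7%, against 4.46% of all genes). That count leaves out FTO, and EIF3A, whose strand is not known here. PRRC2A, an m6A reader, carried 12 peaks in a gene of 17057 bp, with folds of 3.35 to 13.2 (median 5.05). EIF3A, a subunit of the initiation factor that can bind m6A, carried 3, with folds of 3.93 to 4.73, and 1 of them had a p of 4.71e-14. HNRNPA2B1, a nuclear reader, carried a single peak of 51 bp with a fold of 3.86 (p of 3.16e-05). ZC3H13, a subunit of the writer complex, carried a single peak of 51 bp with a fold of 4.84 (p of 0.0028). The peak in FTO, the demethylase gene, had a fold of 6.76 (p of 2.06e-05), but it spanned 18614 bp and lay on the strand opposite to the gene. No peak lay on METTL3, METTL14 or WTAP.

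Luminal and androgen-responsive genes of the prostate were listed in part. Among 31 such genes, 7 carried a peak (22.6%, interval 11.4 to 39.8%, median gene span 52670 bp). KLK3, which encodes PSA, and KLK2, long-used markers of androgen action, were not among them, nor were HOXB13 and KRT18.

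The peaks of these 7 genes had folds from 3.29 to 7.53, and 2 of them reached a p of at most 0.001, as 2.94% of all genes did. FOLH1, which encodes prostate-specific membrane antigen, had a single peak of 11259 bp with a fold of 3.80 (p of 2.10e-09). PMEPA1, an androgen-induced gene that restrains TGF-beta signalling, had 3 with folds of 3.49 to 7.53 (smallest p 6.88e-08). HERC3 had 3 peaks (3.71 to 6.93). SLC45A3, a prostate transporter gene, had a peak of 51 bp with a fold of 5.54 (p of 0.00403). The TMPRSS2 peak had a fold of 3.29 (p of 0.0121) and the KRT8 peak, which is the single keratin peak among 55 keratin genes, a fold of 4.33 (p of 0.00692).

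Among 32 recurrent prostate cancer drivers, 4 carried a peak (12.5%, interval 4.97 to 28.1%, median gene span 83090 bp). They were KMT2D, an enhancer methyltransferase gene (7 peaks, folds 3.87 to 22.8, smallest p 8.13e-08), its paralog KMT2C (4 peaks, folds 5.59 to 17.6), the repressor gene ZBTB16 (3 peaks, 3.88 to 10.6) and the tumour suppressor ZFHX3 (2 peaks, 4.25 and 8.01).

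Chromatin remodelling genes had the largest share of all the lists. A peak was found on 19 of 31 (61.3%, interval 43.8 to 76.3%), with 80 peaks and a median fold of 5.66. Their median gene span, 122630 bp, lies in a class in which 11.7% of all genes carried a peak. SMARCA4, the ATPase of the SWI/SNF remodeller, carried 7 peaks with folds of 3.40 to 11.0 (smallest p 4.25e-12). SMARCC2, a core subunit of the same remodeller, carried 6 peaks with folds of 3.59 to 8.37 (smallest p 5.57e-09). ARID1A, which helps to target it, carried 4 (3.97 to 10.3). BAZ2A, of the nucleolar remodelling complex, carried 2 (5.29 and 6.98). EP400, a large remodelling ATPase, carried 2 with folds of 3.76 and 124, and the peak with the larger fold had a p of 5.54e-05.

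Enzymes that write histone marks carried peaks more often than those that erase them, a difference that was not tested. Of 29 lysine methyltransferases and acetyltransferases, 12 carried a peak (41.4%, interval 25.5 to 59.3%, median gene span 76909 bp). Beside KMT2D, KMT2B carried 2 peaks with folds of 12.1 and 13.9, KMT2A 2 with folds of 7.14 and 10.7, and KAT6A 1 with a fold of 6.52. Of 31 demethylases and deacetylases, 6 carried a peak (19.4%, interval 9.19 to 36.3%, median gene span 55673 bp). KDM6B, which removes methyl groups from lysine 27 of histone H3, stood out with 6 peaks in 20580 bp and a median fold of 14.3 (5.90 to 20.8). KDM4B, which acts on lysine 9 of histone H3, carried 5 (4.55 to 17.2) and KDM3B 2 (4.72 and 11.6). The HDAC4 peak had a fold of 12.7 (p of 8.43e-07) but spanned 161724 bp. Of 38 Mediator and RNA polymerase II genes only POLR2A, which encodes the largest polymerase subunit, carried peaks (5, folds 4.14 to 22.7). The median gene span of that list was 20823 bp, and its share was 2.63% (interval 0.466 to 13.5%). Of all genes, 1.88% of those under 20 kb and 5.98% of those of 20 to 50 kb carried a peak.

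Genes of RNA processing carried peaks without being especially long. Of 33 splicing and nonsense-mediated decay genes, 16 did so (48.5%, interval 32.5 to 64.8%). Their median gene span was 36272 bp, and 5.98% of all genes of 20 to 50 kb carried a peak. PNN, a splicing-associated protein of nuclear speckles, carried 4 peaks in a gene of 7967 bp (folds 3.25 to 5.43, smallest p 1.72e-09). SNRNP200, the helicase that unwinds U4 from U6, carried 6 (4.50 to 8.89). PRPF8, chosen after its values were seen, carried 8 with a median fold of 12.2 (3.10 to 14.3). UPF1, the central helicase of nonsense-mediated decay, carried 2 (5.36 and 5.43). U2AF2 carried 2 within the gene (4.21 and 6.55) beside the one over its start.

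RNA helicases, translation and nuclear pore genes varied. Of 53 DDX and DHX helicase genes, 13 carried a peak (24.5%, interval 14.9 to 37.6%, median gene span 30940 bp). A single 76 bp peak on DDX10, a helicase of ribosome assembly, had a fold of 18.6 (p of 3.62e-11), and DDX5, a coactivator and splicing helicase, carried 4 peaks in 8613 bp (4.54 to 6.12). Its paralog DDX17 carried 3 (4.25 to 6.02). Of 55 translation initiation factor genes, 3 carried a peak (5.45%, median gene span 22741 bp), a share close to that of all genes. They were EIF3A, EIF4G1, the scaffold of the cap-binding complex (7 peaks, 4.30 to 8.43), and EIF3B (4 peaks, 3.88 to 13.9). Of 35 aminoacyl-tRNA synthetase genes, 5 carried a peak (14.3%, median gene span 33874 bp), among them VARS1 with 4 (4.77 to 16.5). Of 26 nucleoporin genes, 5 carried a peak (19.2%, median gene span 65842.5 bp). TPR, of the nuclear basket, carried 7 (3.32 to 14.6), and POM121C and its near-identical paralog POM121, between which reads can be split, carried 2 and 1.

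Cytoskeletal scaffolds held many peaks each. Of 21 plakin, spectrin and ankyrin genes, 9 carried a peak (42.9%, interval 24.5 to 63.5%, median gene span 109464 bp), with 89 peaks and a median fold of 5.61. DSP, which anchors keratin filaments to desmosomes, carried 7 with folds of 3.96 to 11.8, and 1 of these had a p of 3.01e-21. EPPK1, an epithelial plakin, carried 5 with a median fold of 10.8 (3.18 to 19.3).

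Motor proteins showed fewer genes but some with many peaks. Of 36 myosin heavy chain genes, 7 carried a peak (19.4%, median gene span 102763 bp). The non-muscle myosins MYH9, MYH10 and MYH14 carried 8, 5 and 4, with folds of 3.60 to 11.4, 5.08 to 9.82 and 4.28 to 10.8. Of 39 kinesin genes, 5 carried a peak (12.8%, median gene span 56378 bp), with 8 on KIF1C (3.77 to 12.8) and 5 on KIF1A (4.20 to 7.56). Of 15 dynein heavy chain genes (median gene span 315482 bp) only DYNC1H1, the cytoplasmic motor, with 13 peaks (3.74 to 17.9), and DNAH14, with 1, did so.

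The centrosome and spindle list held 11 of 29 genes with a peak (37.9%, interval 22.7 to 56.0%, median gene span 93073 bp) and 55 peaks, with a median fold of 6.79. Beside NUMA1, CEP250, a linker of the centriole pair, carried 11 with folds of 4.21 to 28.3 (median 7.26). AKAP9, a scaffold of the centrosome and Golgi, carried 3, of which a 51 bp peak had a fold of 20.0 (p of 4.12e-13). CEP164, of the distal appendages, carried 2 (8.25 and 24.8).

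DNA repair and checkpoint genes carried peaks in 9 of 44 cases (20.5%, interval 11.2 to 34.5%, median gene span 62642 bp). PRKDC, the kinase of end joining, carried 8 (3.26 to 14), and LIG1, the replicative ligase, 2 (7.27 and 14.8). MDC1, the checkpoint mediator, carried 6 (3.78 to 10.6), but the one with the smallest p, 2.24e-08, lay on the strand opposite to the gene. The single CLSPN peak (fold 5.73) was also on the opposite strand.

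Large ubiquitin ligases carried peaks in 10 of 26 genes (38.5%, interval 22.4 to 57.5%), with a median gene span of 159889 bp. HUWE1 carried 10 with folds of 3.77 to 26.6 (median 6.64), 8 of which overlapped a PC3 peak. RNF213 carried 9 (3.87 to 11.1) and MYCBP2 8 (3.73 to 7.93). UBR4 carried 3 (6.0 to 12.9). Of 50 USP deubiquitinase genes, 8 carried a peak (16%, median gene span 70076 bp), with the largest fold, 22.4, on USP36, which acts in the nucleolus.

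Lipid synthesis genes, many of them androgen responsive in prostate cells, carried peaks in 6 of 28 cases (21.4%, interval 10.2 to 39.5%, median gene span 25798 bp). Most of the 22 peaks, 14, were those of FASN. ACACA, which makes the malonyl-CoA used by fatty acid synthase, carried 3 (4.77 to 6.59, smallest p 7.87e-07). ACLY, which supplies cytosolic acetyl-CoA, carried 1 (7.09, p of 0.00365).

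Growth factor receptor and mTOR pathway genes carried peaks in 6 of 35 cases (17.1%, interval 8.10 to 32.7%, median gene span 91968 bp). ERBB3, a receptor that signals with ERBB2, carried 6 with folds of 3.87 to 12.2 (smallest p 0.000102), and ERBB2 carried 2 (3.92 and 4.71). RPTOR, which defines mTOR complex 1, carried 3 (7.11 to 12), and the insulin receptor gene INSR 2 (4.28 and 5.30). Of 11 genes of endoplasmic reticulum calcium handling, 4 carried a peak (36.4%, median gene span 164541 bp), with 6 on the calcium pump ATP2A2 (4.05 to 5.46) and 2 each on RYR2, ITPR3 and STIM1.

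The largest folds of the list fell on collagen genes of the matrix. Of 25 basement membrane genes, 6 carried a peak (24.0%, interval 11.5 to 43.4%, median gene span 122173 bp), with 9 on LAMC1 (3.96 to 15.5) and 3 on LAMB2 (4.61 to 13.0). COL7A1, the anchoring fibril collagen, carried 6 with folds of 4.48 to 237 and a median of 57.9. Of 44 collagen genes, 6 carried a peak (13.6%, median gene span 144672 bp). Of 28 focal adhesion genes, 6 did so (21.4%, interval 10.2 to 39.5%, median gene span 87393 bp): beside FLNA, VCL carried 1 (9.42) and TRIO 2 (3.31 and 11.6). None of 30 integrin genes carried a peak (upper limit 11.4%, median gene span 66410 bp). That limit is above the 6.71% of all genes of 50 to 100 kb. PLXNB2, a semaphorin receptor gene, was the single plexin gene of 9 with peaks and carried 9 (3.80 to 11.3). Of 97 cadherin and protocadherin genes, 6 carried a peak (6.19%, median gene span 118630 bp), 3 of the peaks on CDH1, the epithelial cadherin gene (3.78 to 10.9).

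Several families of highly expressed housekeeping genes had few peaks or none. None of 84 cytosolic ribosomal protein genes (upper limit 4.37%, median gene span 5046 bp) and none of 50 proteasome subunit genes (upper limit 7.13%, median gene span 13551 bp) carried a peak. A single gene did so of 77 mitochondrial ribosomal protein genes (MRPS25, fold 3.95), of 36 NADH dehydrogenase subunit genes and of 91 histone genes (H1-10, folds 3.47 and 3.91). The folds given here were below the median of the list. None of 392 olfactory receptor genes, which are silent in most tissues, carried a peak (upper limit 0.970%). The short span of such genes accompanies their low shares, since 1.88% of all genes under 20 kb carried a peak.

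Several larger families were also examined. Of 510 ZNF genes, 19 carried a peak (3.73%, interval 2.40 to 5.75%, median gene span 23574 bp). Folds of 29.4 on ZNF276 and 27.5 on ZNF385B were the largest among them. Of 391 solute carrier genes, 18 carried a peak (4.60%, interval 2.93 to 7.16%, median gene span 37402 bp). SLC12A7, a potassium-chloride cotransporter, carried 6 within a narrow range of folds, 7.03 to 8.19. Of 45 ABC transporter genes, 4 did so (8.89%, median gene span 82721 bp), with 3 each on ABCF1 and ABCC1. None of 35 ARHGAP genes carried a peak (upper limit 9.89%, median gene span 123479 bp), and 2 of 26 ARHGEF genes did (98822 bp). TRIM genes stood at 3 of 73 (4.11%, median gene span 17261 bp) and TBC1D genes at 4 of 43 (9.30%, 34952 bp). A single DOCK gene of 11 (median gene span 277379 bp), DOCK1, carried 4 peaks. Of the 4 VPS13 genes, VPS13A, VPS13B and VPS13C carried 1 each, with folds of 3.04 to 4.63 and no p of at most 0.001. Of 18 mucin genes, MUC6 (fold 13.1) and MUC5AC (fold 3.92) carried 1 each. Mucin genes hold repeats to which reads map with difficulty, and whether these peaks lie in them was not tested.

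The peaks with the smallest p and those with the largest fold were different peaks, with the exception of 1. By p the first was on PLEC (p of 9.81e-41, fold 12.5). MYH9 followed with a p of 1.37e-32 (fold 11.4). The next were PTPRN2 (p of 4.53e-29, fold 22.8), which encodes a secretory granule phosphatase-like protein, and SPON2 (p of 2.14e-26, fold 11.9), a secreted matrix protein gene whose peak spanned only 76 bp. RILPL1 (p of 3.84e-26, fold 52.5) and MAEA (p of 2.91e-23, fold 19) came after them. FN1 (p of 6.19e-23, fold 8.63) and DSP (p of 3.01e-21, fold 6.85), described above, were next. ANKRD11, a chromatin regulator gene (p of 3.10e-21, fold 8.81), and NCL (p of 1.41e-20, fold 5.21) completed the 10. The 10 peaks lay inside single genes of very different length, from NCL, the nucleolin gene, at 10954 bp to PTPRN2 at 1048768 bp.

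By fold the first was a 148 bp peak on COL7A1, chr3:48572736-48572883, at 237 (p of 3.63e-06), and 2 more COL7A1 peaks had folds of 115 and 68.8. COL6A2 followed at 203 (p of 9.66e-06), then IL9R at 125, EP400 at 124, RTEL1, a telomere helicase gene, at 105, ACIN1 at 87.7 and PIAS4 at 75.1. IL9R lies in a pseudoautosomal region, where reads match both sex chromosomes. RILPL1 at 52.5 was in both sets. Of the 10 largest folds, only those of PIAS4 (p of 2.22e-16) and RILPL1 came with a p below 1e-10.

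**Figure D4:**
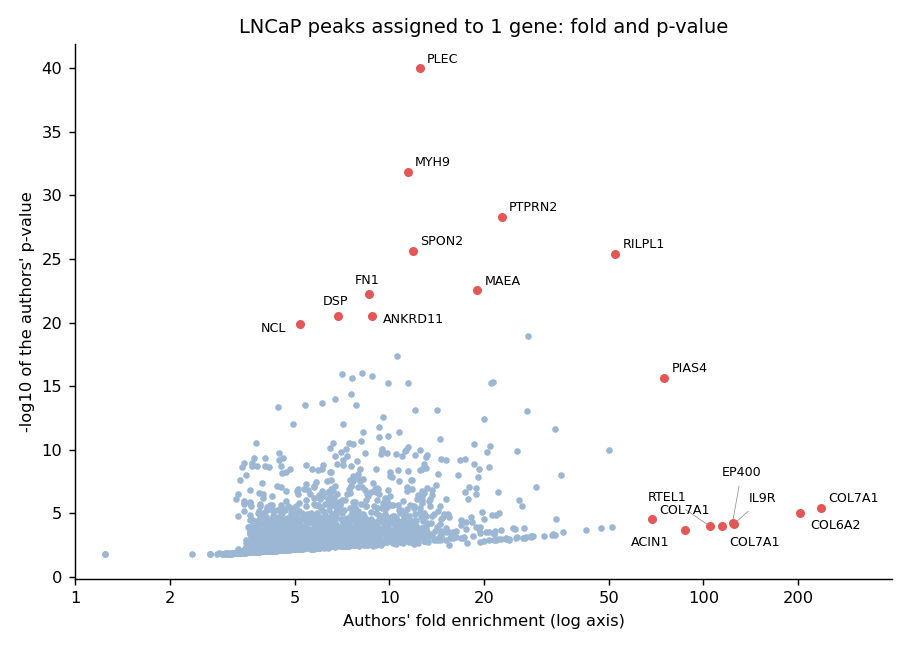
Authors' fold (log axis) against the negative log10 of the authors' p-value for the 2486 LNCaP peaks assigned to 1 gene, with the 10 smallest p and the 10 largest folds in red. PLEC has the smallest p, 9.81e-41, at a fold of 12.5, while the COL7A1 peak with a fold of 237 has a p of 3.63e-06.

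Among peaks assigned to a gene, the 5 widest lay on neuronal genes with long introns. ROBO2, an axon guidance receptor gene, held the widest, at 1102459 bp (fold 12.6, p of 0.000135). LRRTM4, DLGAP2, NALF1 and DPP10 followed with spans of 767927, 763588, 655102 and 602603 bp and folds of 8.65, 15.5, 5.55 and 7.94. A further peak, at chr3:28576490-29183030, touched no protein-coding gene, spanned 606541 bp and had a fold of 10.9 (p of 0.000364). The 458 peaks that spanned over 10000 bp had a median fold of 5.44 and a median p of 0.00133, against 4.93 and 0.0024 for the 856 peaks of at most 200 bp.

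The strand of a peak nearly always matched that of its gene. The RefSeq promoter table gave a strand for the genes of 2048 assigned peaks, and 1996 of these (97.5%) lay on the strand of the gene. Counting only such peaks, 890 of 15813 genes with a known strand carried one (5.63%). Of the 52 peaks on the opposite strand, 37 overlapped a LNCaP peak of the other strand, while 143 of all 2616 peaks (5.47%) did so. NUMA1 had the most opposite peaks, 6, and each of them overlapped a peak on the strand of the gene. Its opposite peak at chr11:72015690-72016040, for example, was offset by a few bases from the gene-strand peak at chr11:72015687-72016037, with folds of 7.65 and 7.38. MDC1 had 2 opposite peaks, and FTO, CLSPN, DYNC1H1, RNF213, MYCBP2, KIF1C and DOCK1 had 1 each. Whether these came from antisense transcripts was not tested.

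Peaks were more frequent towards the end of the gene. With each gene divided into 3 equal parts, 19.8% of the 1996 strand-matched peaks had their midpoint in the first part, 33.3% in the middle and 46.9% (interval 44.8 to 49.1%) in the last. With 10 equal parts, the share was 4.56% in the first and 16.9% in the ninth, and it was 12% in the last. A peak had to lie whole within its gene, so the midpoint of a wide peak could not fall close to either end. For genes grouped by peak number, all assigned peaks were used, each placed along its own strand. A peak opposite to its gene was thus counted from the gene's other end. On the 24 genes with 10 or more peaks, 55.2% (interval 49.7 to 60.5%) of 319 peaks lay in the last of the 3 parts. The interval does not take into account that these peaks share genes. On genes with a single peak the share was 35.8% (31.9 to 39.9%) of 553. These are positions along the genomic span and not along the spliced RNA.

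**Figure D5:**
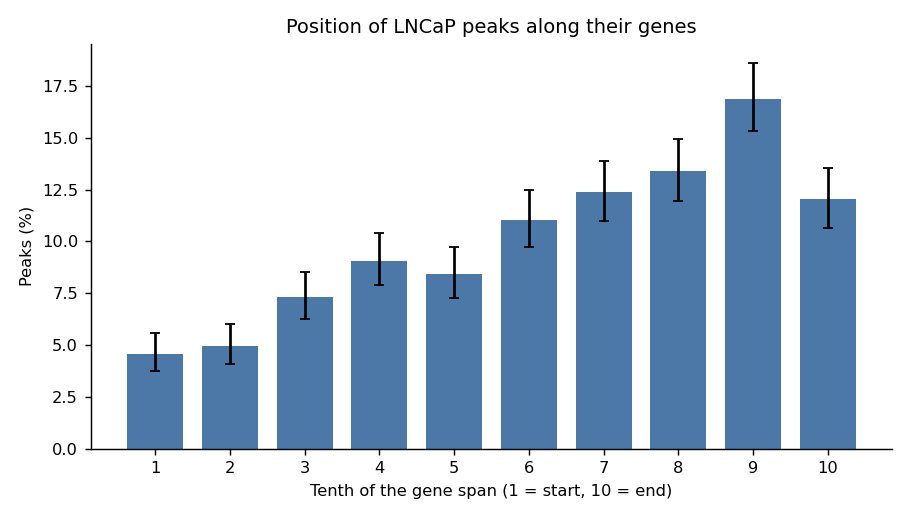
Percent of the 1996 strand-matched LNCaP peaks whose midpoint lay in each of 10 equal parts of the genomic span of its gene, from start (1) to end (10), with 95% Wilson intervals. The share was 4.56% in the first part, 16.9% in the ninth and 12% in the last.

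By chromosome, the share of genes with a peak was highest on chromosome 21 (23 of 239, 9.62%, interval 6.50 to 14%), followed by chromosome 17 (90 of 1169, 7.70%) and chromosome 10 (53 of 734, 7.22%). It was lowest on chromosome X (25 of 848, 2.95%, interval 2.0 to 4.32%), chromosome 2 (38 of 1254, 3.03%) and chromosome 18 (9 of 270, 3.33%). The median gene span was 23441, 15564 and 36629.5 bp on chromosomes 21, 17 and 10, and 16189.5, 39237 and 51310 bp on chromosomes X, 2 and 18. Its part in the order of the chromosomes was not tested.

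The PC3 list gives a comparison within limits. It ends at a p of 1.59e-05, which 389 LNCaP peaks reach, and it held peaks on 357 protein-coding genes (1.79%), 227 of them with a LNCaP peak too. The lists were made separately, so their counts are set side by side and were not tested. Of the 24 LNCaP genes with 10 or more peaks, 21 had a PC3 peak, while 53 of the 553 genes with a single peak had one. FASN, with 14 LNCaP peaks, had none in PC3. DYNC1H1 had 13 and 18, FLNA 15 and 16, PLEC 16 and 15, MKI67 17 and 5 and NUMA1 14 and 3.

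Gene groups were counted in both lists, and in the LNCaP list also at the largest PC3 p, since the unequal ends of the lists move these counts. Over all 19974 protein-coding genes, 357 (1.79%) were listed in PC3 and 1081 (5.41%) in LNCaP, but 249 in LNCaP at that p. KRT8, FOLH1, TMPRSS2 and the rest of the 31 luminal and androgen-responsive genes had no PC3 peak. With 1.79% of all genes listed in PC3, an absence among 31 genes lies near that share. In the LNCaP list 7 of the 31 had a peak, and 2 at the largest PC3 p. Of 31 chromatin remodelling genes, 15 were listed in PC3 and 19 in LNCaP, but 6 in LNCaP at that p. The direction thus turned, as it did over all genes. Plakins, spectrins and ankyrins had 9 of 21 in both lists as deposited, and 6 in LNCaP at that p. Splicing and decay genes had 6 of 33 in PC3 and 16 in LNCaP, and 6 in LNCaP at that p. DNA repair genes had 2 of 44 in PC3 and 9 in LNCaP, with 3 at that p, and lipid synthesis genes 1 of 28 and 6, with 2 at that p. Focal adhesion genes had 9 of 28 in PC3 and 6 in LNCaP, with 2 at that p.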

How the data were processed

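Per the labels, RIP-seq libraries were made with a stranded kit from METTL3 IP and input of LNCaP and PC3, 2 samples per group. The submitters' processing notes name fastp, STAR 2.5.3a, bedtools, deepTools and hg38, with no role. The peak caller, its filters and any pooling of replicates are not given in the sources used here. Per the file headers, each deposited list gives per peak a score, an FDR, a p-value and a linear fold. Adjusting the listed p-values by Benjamini-Hochberg returned the FDR (largest relative difference 8.94e-13), so regions that were tested and not listed are not counted in it. The deposited score was not used for any result.

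Peaks were assigned to genes of a RefSeq table on GRCh38.p14, in Python 3.11.15 with pandas 2.3.3, numpy 2.4.6, scipy 1.17.1, statsmodels 0.14.6 and matplotlib 3.10.9. The strand of a gene came from the RefSeq promoter table, which gave it for 15813 of the 19974 protein-coding genes. Peaks overlapped where they shared at least 1 bp on 1 strand. The assignment and counting were tested on simulated peaks. Of 561 list symbols, 4 were not among the protein-coding genes.

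The members and lists were chosen with earlier results of these data known. Genes are named by rule: the 10 genes with most peaks, the 10 peaks with the smallest p and the 10 with the largest fold, the 5 widest peaks, up to 4 genes per list or family with the smallest p, every listed m6A machinery gene and prostate cancer driver, and the cell type markers. Some genes that meet this rule are not reported here. The planned edgeR test of IP against input was not run, because the lists hold no values per sample. Alternatives were cutoffs of p at 0.001 and fold at 4, spans of at most 100000 bp, joining peaks within 25 bp, assignment by midpoint, gene strand, and 50% overlap.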

Additional observations from a re-analysis of the deposited data

How the results depend on the processing

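With p of at most 0.001, the counts fell to 1159 peaks and 588 genes, the median fold was 6.77 and the share that overlapped a PC3 peak 27.7%, against 21.3% as listed. A fold of at least 4 gave a median fold of 5.80, a rise that this cutoff makes by itself. With 50% of both peaks required, 8.52% overlapped. An alternative chosen after seeing the data, the largest PC3 p, left 389 peaks on 249 genes, a median fold of 7.74 and 48.2% with their midpoint in the last of 3 parts of the gene, against 45.8% as listed over all assigned peaks. The other 24 recomputed values of these results stayed within 1.5 times a listed count or the counting interval of a listed share or median. Those without genes of 10 or more peaks, among the 24, were also chosen after seeing the data. The peak number and the median fold under midpoint assignment, also among the 24, could not change, since neither uses the assignment. For gene groups, the count of genes with a peak moved in 21 of 51 at p of at most 0.001, in 5 at a fold of at least 4 and in 7 when only strand-matched peaks counted. The group's share stayed on its side of the share over all genes in 47, 51 and 49 of the 51. The exceptions at p of at most 0.001 were cadherins, ARHGEF, TBC1D and VPS13 genes, and with strand-matched peaks initiation factors and mucins, where the table gives no strand for EIF3A, MUC6 and MUC5AC. No paired analysis was possible because the lists hold no values per sample, and for the same reason leaving out each replicate was not run. Depth is unknown, so a gene without a peak cannot be told from one with too few reads.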

Other observations

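Of the 78 LNCaP peaks that no protein-coding gene held whole, 51 touched a protein-coding gene in part and 25 lay whole within another annotated gene, 19 of them within a long non-coding RNA. SNHG14, the long host transcript of small nucleolar RNAs in the imprinted region of chromosome 15, held 4 of these peaks, with folds of 14.6, 7.74, 5.01 and 4.19. Start-overlapping peaks of SRRM2, PRPF8 and ZRANB2 were among those that touched a gene in part. EP300, an acetyltransferase gene, was touched by a minus-strand peak with a fold of 11.2 (p of 5.25e-09), chosen after its values were seen.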
